A study of Mus musculus with 10 samples.

Results

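The transcripts described here are those of 31 digestive enzymes and other secretory products of pancreatic acinar cells, taken by gene name from a list of proteases, lipases, amylases and granule products, and all 31 were found among the 54532 genes of the count table. RNA of whole mouse pancreas was sequenced at embryonic days 13.5 and 14.5 after poly(A) selection. All embryos came from the Fgf9-LacZ line on a C57BL/6J background, which carries a LacZ cassette at the gene of the secreted growth factor Fgf9. Control pools mixed Fgf9 +/+ and Fgf9 +/- embryos, so some control embryos carried 1 copy of the cassette, and the null-labelled pools were Fgf9 -/-. Each library came from a pool of pancreata. The control pools held 12, 7 and 12 pancreata at E13.5 and 8, 7 and 6 at E14.5. The null-labelled pools held 7 and 6 pancreata at E13.5 and 4 and 3 at E14.5. The labels do not say whether pools were separate litters, so the tests measure the spread between these pools only.

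Total counts ran from 17736769 to 22798257 per library. Fgf9 itself was at 18.4, 11.3 and 16.2 CPM (counts scaled to a common library total) in E13.5 controls and at 5.57 and 7.66 CPM in E13.5 null-labelled libraries. At E14.5 the controls were at 13.6, 8.76 and 6.96 CPM and the null-labelled libraries at 11.7 and 6.14 CPM. The groups did not overlap at E13.5 and overlapped at E14.5, and neither difference passed the test (edgeR adjusted p = 0.293 and 0.957). Counts per gene do not separate disrupted from intact Fgf9 transcripts, so the groups are called null-labelled throughout.

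Acinar cells make digestive enzymes, many of them as inactive precursors that are cut to their active form in the gut, and store them in zymogen granules with inhibitors, lectins and membrane proteins. In the mouse embryo the acinar lineage arises from the tips of the branching pancreatic epithelium. The transcription factor complex PTF1, which contains Ptf1a and Rbpjl, and the nuclear receptor Nr5a2 are known to bind near acinar enzyme genes, and Bhlha15 is needed for the secretory build of the cell.

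The levels already spanned a wide range at E13.5. Per transcript length, as RPKM (CPM divided by exon length), Ctrb1, the precursor of the protease chymotrypsin B, had the highest mean in each of the 4 groups. Its mean was 1139 ± 408 RPKM (SD, n = 3) in E13.5 controls and 9856 ± 6172 RPKM (SD, n = 3) in E14.5 controls. In E13.5 controls the order went on with the carboxypeptidase Cpa1 at 703 ± 183 RPKM, the lipase-related gene Pnliprp1 at 549 ± 161 RPKM and the lipase cofactor Clps at 357 ± 75.3 RPKM (SD, n = 3 each). The ranges over libraries overlapped between Ctrb1 (670 to 1407 RPKM) and Cpa1 (492 to 820 RPKM), between Cpa1 and Pnliprp1 (363 to 642 RPKM), and between Pnliprp1 and Clps (275 to 423 RPKM). Within each single E13.5 control, though, these genes kept the order of their means. The bile salt-stimulated lipase Cel followed at 76.2 ± 32.3 RPKM (SD, n = 3), below all of these. In E14.5 controls Pnliprp1, at 3800 ± 2250 RPKM (SD, n = 3), had a higher mean than Cpa1, at 2035 ± 727 RPKM (SD, n = 3). It was above Cpa1 in each E14.5 control, by little in E14.5 control 1 (1260 against 1253 RPKM). At the low end, Pnlip, which encodes the main pancreatic triglyceride lipase of the adult, was at 0.408 ± 0.0611 RPKM (SD, n = 3) in E13.5 controls and 0.582 ± 0.109 RPKM (SD, n = 3) in E14.5 controls. The phospholipase Pla2g1b, the granule membrane proteins Gp2 and Cuzd1, the granule lectin Zg16 and the chymotrypsin-like gene Ctrl were likewise under 3 RPKM in every group mean. Across the 31 genes the mean RPKM of the E13.5 and E14.5 controls correlated at a Spearman rho of 0.84, and those of null-labelled and control libraries at 0.97 at E13.5 and 0.99 at E14.5, given as descriptions of genes that share libraries.

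Together the 31 genes took 0.277, 0.462 and 0.482 percent of all counts in the E13.5 controls and 0.299 and 0.363 percent in the E13.5 null-labelled libraries. At E14.5 they took 0.938, 3.42 and 2.6 percent in the controls and 1.1 and 3.41 percent in the null-labelled libraries. Every E14.5 library was above every E13.5 library, and the pools numbered 1 were the lowest of each E14.5 group. Cpa1, Ctrb1 and Pnliprp1 held 82.3 to 86.6 percent of these counts. The 4 markers of salivary gland, which also makes amylase and kallikrein, were too low to be tested, and Bpifa2, Muc19, Prol1 and Smr3a summed to between 0 and 0.167 CPM per library.

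**Figure D1:**
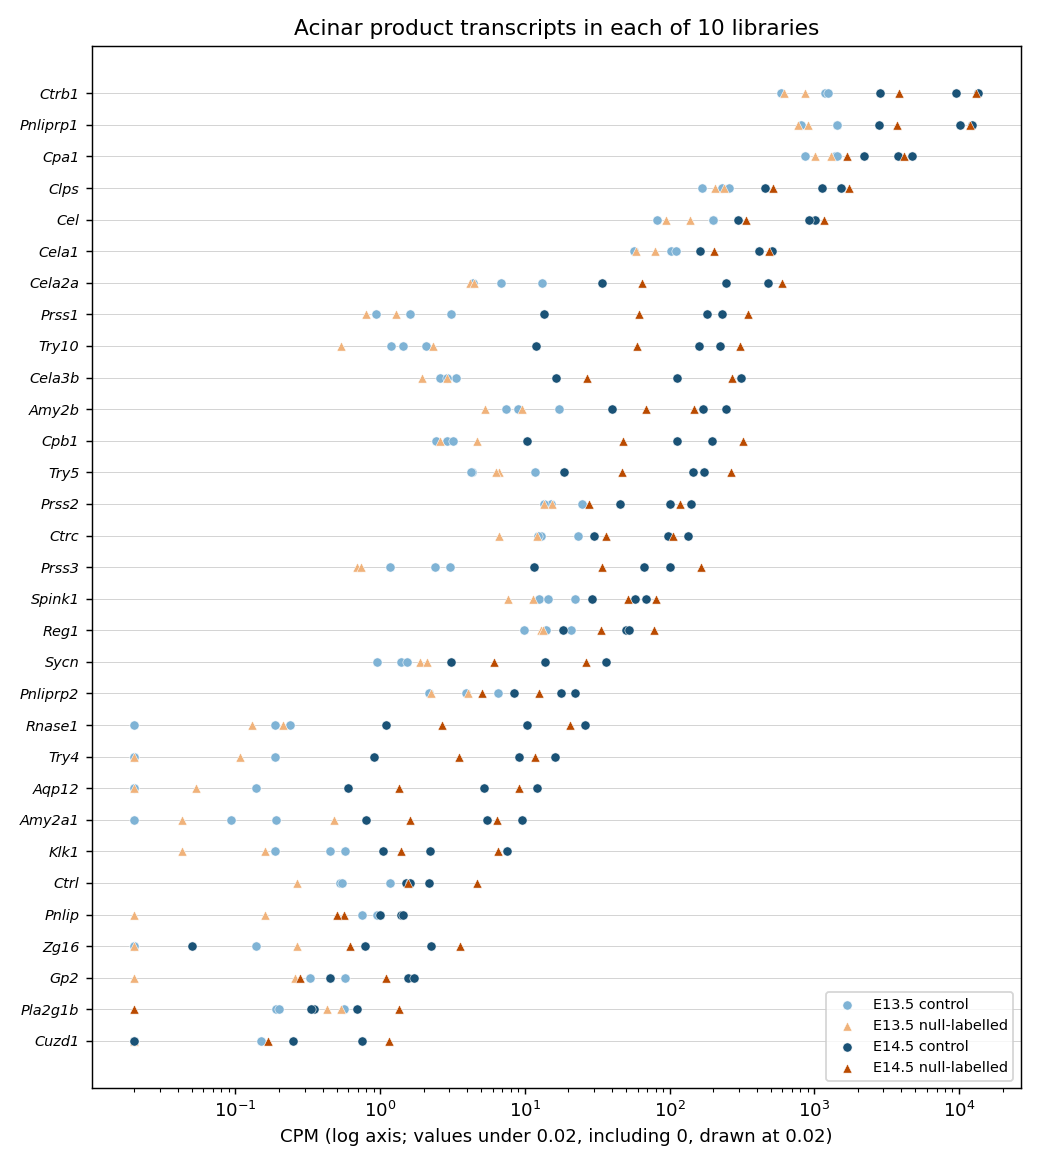
Level of each of the 31 transcripts in each of the 10 libraries, in CPM on a log axis, with controls as circles and null-labelled libraries as triangles, and genes ordered by mean level. Values under 0.02 CPM, zeros included, are drawn at 0.02. The E14.5 points lie to the right of the E13.5 points for most genes, and in each E14.5 group 1 point lies apart on the left.

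The stage comparison in controls asks how the acinar transcripts differ after a day of development. Of the 31 genes 8 (Try4, Amy2a1, Rnase1, Gp2, Cuzd1, Aqp12, Klk1 and Zg16) passed the filter on low counts only through their E14.5 libraries, and so had to be higher there. Of the 23 that passed on E13.5 libraries alone, 16 rose in controls from E13.5 to E14.5 and none fell, with a median log2 fold change of 2.43. Over all 31, 4 of the 8 (Try4, Amy2a1, Rnase1 and Aqp12) made the count 20, against 0.778 percent of the 18898 genes tested that rose and 0.339 percent that fell (edgeR adjusted p under 0.05). The log2 fold change was above 0 for 31 of 31 genes, with a median of 3.11, against 0.01 over all genes tested. In 26 of 31 genes, and 21 of the 23, every E14.5 control lay above every E13.5 control, which held for 9.93 percent of all genes, while 10.6 percent had every E14.5 control below. In bulk RNA a larger share of acinar cells and more RNA per acinar cell cannot be told apart.

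The call count changed when libraries were left out. With any 1 of E13.5 controls 1, 2 and 3 or E14.5 controls 2 and 3 left out, 0 of the 31 genes were called, where the share of all genes called higher was between 0 and 0.0582 percent, while all log2 fold changes stayed above 0 without each of the 10 libraries in turn, except that Cuzd1 was not tested without E14.5 control 2. Leaving out either E13.5 null-labelled library gave 13 called (0.371 and 0.367 percent of all genes). Either E14.5 null-labelled library left out gave 25 (1.58 and 1.56 percent), and leaving out E14.5 control 1 also gave 25 (3.88 percent). The null-labelled libraries are in neither group compared here. They bear on the shared spread and on the filter. It left 20495 and 20426 genes without an E13.5 null-labelled library, and 20465 and 20271 without an E14.5 one. DESeq2 called 24 and 3.51 percent of all genes higher, and limma-voom called 1 and 0.164 percent.

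Among proteases, 5 trypsins, all 3 elastases and 2 of 3 chymotrypsins rose in controls, and the other trypsin, Try4, is one of the genes that had to be higher at E14.5. Ctrb1 (ENSMUSG00000031957, chromosome 8, 111686519 to 111691010, minus strand) was at 588, 1177 and 1236 CPM in E13.5 controls and at 2850, 13582 and 9528 CPM in E14.5 controls, 8.65-fold higher (log2 3.11, SE 0.55, edgeR adjusted p = 0.0307). Prss1 (ENSMUSG00000062751, chromosome 6, 41458932 to 41463786, plus strand), a trypsinogen gene, was at 0.931, 1.62 and 3.08 CPM and then at 13.6, 231 and 181 CPM, 75.7-fold higher (log2 6.24, SE 1, edgeR adjusted p = 0.0224). Neither gene had overlapping stages, and in both E14.5 control 1 was the lowest of its group.

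Prss2, another trypsinogen gene, was already at 15.1, 13.5 and 24.8 CPM at E13.5 and reached 45.2, 140 and 101 CPM, 5.36-fold higher (edgeR adjusted p = 0.0428). Cela1, an elastase gene, went from 56.8, 102 and 110 CPM to 161, 514 and 412 CPM, 4.05-fold higher (edgeR adjusted p = 0.043). Cela2a went from 6.85, 4.38 and 13.2 CPM to 34.1, 481 and 246 CPM, 31.2-fold higher (edgeR adjusted p = 0.0371). No E14.5 control overlapped an E13.5 control in these 3 genes. Cela3b rose 49.7-fold, Try10 83.1-fold, Prss3 27.2-fold and Try5 16.5-fold, all from under 12 CPM in every E13.5 control. Ctrc, whose product degrades trypsin, rose 5.39-fold (edgeR adjusted p = 0.0477), but its annotated span contains that of Cela2a on the same strand, and how reads in shared exons were counted is not known from the labels.

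Of the 2 carboxypeptidases 1 passed. Cpb1 (ENSMUSG00000011463, chromosome 3, 20248264 to 20275733, minus strand), whose product removes basic residues from the carboxyl end, was at 2.42, 2.91 and 3.18 CPM in E13.5 controls and at 10.3, 196 and 112 CPM in E14.5 controls, 37.4-fold higher (edgeR adjusted p = 0.033). Cpa1 (ENSMUSG00000054446, chromosome 6, 30639218 to 30645363, plus strand), also a marker of early multipotent tip cells, was at 861, 1394 and 1435 CPM and then at 2192, 4708 and 3781 CPM, 2.89-fold, and did not pass (log2 1.53, SE 0.34, edgeR adjusted p = 0.052). No E14.5 control overlapped an E13.5 control in either gene.

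Of the lipid enzymes and their cofactor, Pnliprp1 and Clps rose. Pnliprp1 (ENSMUSG00000042179, chromosome 19, 58728887 to 58744169, plus strand) was at 807, 1427 and 1424 CPM in E13.5 controls and 2800, 12321 and 10224 CPM in E14.5 controls, 6.93-fold higher (log2 2.79, SE 0.51, edgeR adjusted p = 0.033). Clps, the colipase gene, was at 168, 228 and 258 CPM and then at 458, 1531 and 1126 CPM, 4.76-fold higher (edgeR adjusted p = 0.04). Cel was at 81.9, 200 and 199 CPM and then at 299, 1006 and 922 CPM, 4.63-fold, and did not pass (edgeR adjusted p = 0.0577). Pnliprp2 did not pass either (log2 1.94, SE 0.47, edgeR adjusted p = 0.0646). Pnlip, in the same stretch of chromosome 19 as both related genes (58652498 to 58681788, plus strand), was at 0.745, 1 and 0.944 CPM and then at 1, 1.38 and 1.45 CPM. The log2 fold change was 0.51 (SE 0.68, edgeR adjusted p = 0.8). Per length, E14.5 controls held 0.582 RPKM of Pnlip and 3800 RPKM of its neighbour Pnliprp1.

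Of the amylase genes Amy2b rose, and Amy2a1 is one of the genes that had to be higher at E14.5. Amy2b was at 8.99, 17.1 and 7.36 CPM in E13.5 controls and 40, 247 and 169 CPM in E14.5 controls, 13.6-fold higher (edgeR adjusted p = 0.0182), the lowest adjusted p of the 31 genes in this comparison. Amy2b is annotated as an unprocessed pseudogene in the annotation used here, and its transcript is 98.3 percent identical to that of Amy2a1 over their alignment, so reads may be split between them. With both rows summed, amylase had a log2 fold change of 3.8 (SE 0.59, edgeR adjusted p = 0.0177).

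Among the other products, the trypsin inhibitor Spink1 was at 12.5, 14.4 and 22.2 CPM in E13.5 controls and 29.3, 68.4 and 57.6 CPM in E14.5 controls, 3.16-fold higher (edgeR adjusted p = 0.0352). The granule protein gene Sycn (syncollin) rose 13.6-fold. The ribonuclease gene Rnase1 and the water channel gene Aqp12 passed too, but both had to be higher at E14.5 by the filter, with at most 0.238 and 0.14 CPM in the E13.5 controls. Reg1, which encodes a secreted lectin, was at 9.92, 20.9 and 14 CPM and then at 18.3, 50 and 52.3 CPM. Its E14.5 control 1 lay within the E13.5 range, and it did not pass (log2 1.43, SE 0.4, edgeR adjusted p = 0.0952). Klk1, Zg16, Gp2, Cuzd1, Ctrl and Pla2g1b did not pass either, with adjusted p from 0.0791 to 0.889.

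Null-labelled pancreas differed between stages in the same direction. Between the stages 3 of 31 genes rose, all of them among the 23 that passed on E13.5 libraries, and none fell, against 0.201 percent of all genes that rose and 0.0476 percent that fell (edgeR). The median log2 fold change was 3.52, and 3.26 with Cuzd1 at the bound that its E13.5 counts of 0 allow, and 2.93 over the 23. In 30 of 31 genes, and 22 of the 23, both E14.5 null-labelled libraries lay above both from E13.5, the exception being Pla2g1b. This held for 21.3 percent of all genes. At an unadjusted p under 0.05 there were 29 genes, 22 of them among the 23, against 13.8 percent of all genes (edgeR). DESeq2 called 20, against 2.4 percent of all genes, and limma-voom called 1, against 0.111 percent.

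The 3 called genes were trypsins and their inhibitor. Spink1 was at 11.3 and 7.62 CPM in E13.5 null-labelled libraries and at 51.3 and 79.9 CPM at E14.5, 6.96-fold higher (log2 2.8, SE 0.4, edgeR adjusted p = 0.0147). Prss3 was at 0.696 and 0.732 CPM and then at 33.9 and 165 CPM, 138-fold higher (edgeR adjusted p = 0.0252). Prss1 was at 0.803 and 1.29 CPM and then at 61 and 349 CPM, 191-fold higher (edgeR adjusted p = 0.0422). The most abundant genes had log2 fold changes near those in controls and did not pass. Ctrb1 was at 619 and 863 CPM and then at 3832 and 13121 CPM (log2 3.52, SE 0.69, edgeR adjusted p = 0.0646). Pnliprp1 was at 769 and 898 CPM and then at 3705 and 11932 CPM (log2 3.23, SE 0.64, edgeR adjusted p = 0.0653). Cpa1 was at 1017 and 1304 CPM and then at 1683 and 4171 CPM (log2 1.33, SE 0.41, edgeR adjusted p = 0.18). Clps was at 236 and 205 CPM and then at 520 and 1733 CPM, and Cela1 at 58.7 and 79.6 CPM and then at 203 and 489 CPM. Prss2 was at 15.3 and 13.5 CPM and then at 27.6 and 119 CPM, and Amy2b at 9.53 and 5.34 CPM and then at 69 and 148 CPM. These 4 genes did not pass (edgeR adjusted p from 0.0528 to 0.129). Stages did not overlap in any of these genes. Without either E13.5 null-labelled library 0 genes were called, without 1 of E13.5 controls 2 and 3 and E14.5 control 3 the count was 1, and without E14.5 control 1 or E14.5 null 1 it was 22.

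The 2 stage differences share no library. Across the 31 genes they had a Pearson r of 0.86 and a Spearman rho of 0.89, and 0.93 and 0.9 over the 23 genes that passed the filter on E13.5 libraries alone, given as descriptions. The larger value was the null-labelled one in 23 of 31 genes. None of the 31 genes, and 0 percent of all genes, passed the test of the difference between the stage differences (edgeR), and DESeq2 and limma-voom called 0 of the 31. At an unadjusted p under 0.05 there was 1, against 2.4 percent of all genes, namely Spink1, whose stage difference was 1.14 larger on the log2 scale in null-labelled libraries (SE 0.49, edgeR adjusted p = 1). With the replicate number as a block, Prss3 passed, with a stage difference 2.4 larger (SE 0.41, edgeR adjusted p = 0.0453), against 0.0265 percent of all genes in that direction and 0.0423 percent in the other.

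**Figure D2:**
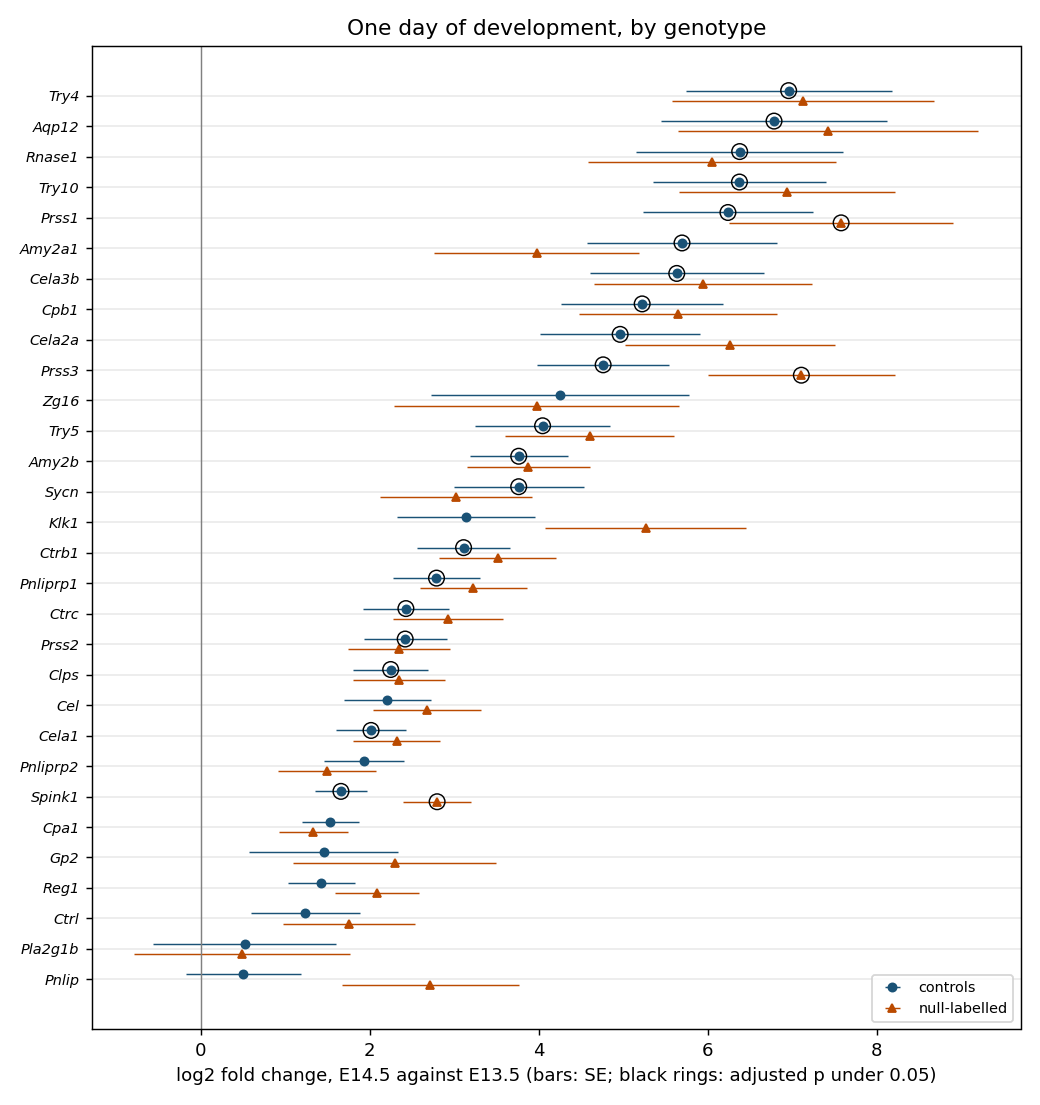
Log2 fold change from E13.5 to E14.5 for 30 of the 31 genes, in controls (circles) and null-labelled libraries (triangles), with SE bars and a black ring where the adjusted p was under 0.05. Cuzd1 is left out because both E13.5 null-labelled libraries had 0 counts. All points lie above 0, with Pnlip and Pla2g1b nearest to it in controls.

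The make-up of the trypsin transcripts differed between the stages, given here as a description because it was looked at after the values had been seen. The 6 genes lie between 41302269 and 41525079 on chromosome 6, and their transcripts are near copies, with 96.1 percent identity between Prss1 and Prss3, 97.1 percent between Try4 and Try5, and 88 to 89.8 percent between Prss2 and the others. Among the other 5 the identity ran from 89.0 to 97.1 percent. Prss2 held 65.4, 58.9 and 55.3 percent of the 6 genes' counts in E13.5 controls and 63.7 and 56 percent in E13.5 null-labelled libraries. At E14.5 it held 44.4, 15.9 and 15.3 percent in controls and 11.9 and 9.75 percent in null-labelled libraries. The share of Prss1 went the other way, from 3.34 to 7.05 percent over the 5 E13.5 libraries to 13.4 to 28.6 percent over the 5 E14.5 libraries. Try10 went from 2.23 to 9.63 percent to 11.6 to 25.6 percent, while Try5 ranged from 18.5 to 27.4 percent and from 18.3 to 21.9 percent. E14.5 control 1 lay between the stages in the shares of Prss2, Prss1 and Try10.

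With the 6 rows summed, trypsin went from 23.1, 23 and 44.8 CPM in E13.5 controls to 102, 884 and 660 CPM in E14.5 controls, a log2 fold change of 4.18 (SE 0.73, edgeR adjusted p = 0.0321). In null-labelled libraries the sum went from 24.1 and 24.1 CPM to 232 and 1219 CPM, which did not pass (log2 4.91, SE 0.93, edgeR adjusted p = 0.0588). Further annotated trypsin copies are not in this sum or in the shares above. With all annotated copies summed, the log2 fold change was 4.27 in controls (SE 0.75, edgeR adjusted p = 0.032). It was 5.05 in null-labelled libraries (SE 0.96, edgeR adjusted p = 0.0588).

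**Figure D3:**
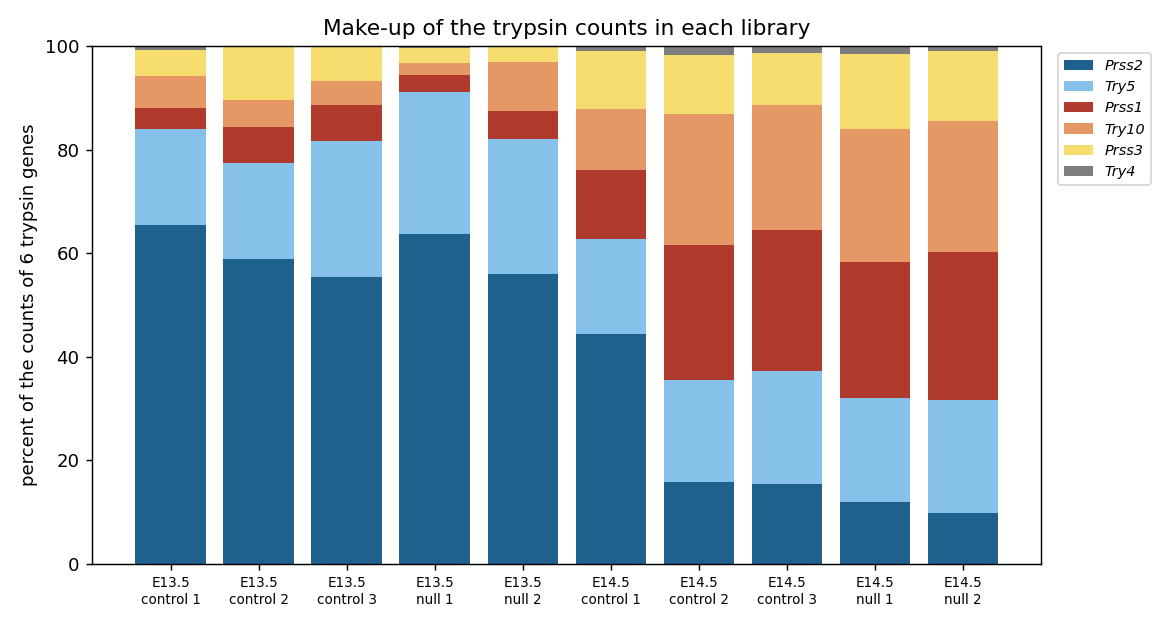
Share of each trypsin gene in the summed counts of the 6 genes, as stacked bars from 0 to 100 percent, for each of the 10 libraries. The Prss2 share falls from 55.3 percent or more in the E13.5 libraries to 15.9 percent or less in 4 of the 5 E14.5 libraries, with 44.4 percent in E14.5 control 1.

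The DNA before the start sites of genes at both ends of the range of stage differences is shown because the stage differences of the acinar genes were unequal. Among genes with a mean of at least 10 CPM and a RefSeq entry, Prss1 and Cela3b had the largest stage differences in controls, and Reg1 and Cpa1 the smallest. Each line gives the 250 bases before the RefSeq start on GRCm38.p6, read 5′ to 3′ along the gene. Capitals mark CACCTG, the E-box of a PTF1 site, TTTCCC, its other element, and AAGGTCA, the core bound by Nr5a2, or the reverse complement of each.
Prss1 (chr6:41458680-41458929, plus strand): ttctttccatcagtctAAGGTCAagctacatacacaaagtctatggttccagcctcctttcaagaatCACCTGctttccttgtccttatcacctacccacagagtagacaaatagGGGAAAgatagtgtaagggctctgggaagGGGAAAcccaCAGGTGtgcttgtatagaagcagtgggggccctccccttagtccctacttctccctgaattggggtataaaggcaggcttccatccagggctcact
Cela3b (chr4:137430521-137430770, minus strand): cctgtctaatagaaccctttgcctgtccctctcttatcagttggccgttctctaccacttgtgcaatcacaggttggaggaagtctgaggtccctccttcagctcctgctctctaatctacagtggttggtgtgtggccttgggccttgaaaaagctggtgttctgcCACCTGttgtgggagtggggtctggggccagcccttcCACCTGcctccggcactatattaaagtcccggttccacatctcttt
Reg1 (chr6:78425733-78425982, plus strand): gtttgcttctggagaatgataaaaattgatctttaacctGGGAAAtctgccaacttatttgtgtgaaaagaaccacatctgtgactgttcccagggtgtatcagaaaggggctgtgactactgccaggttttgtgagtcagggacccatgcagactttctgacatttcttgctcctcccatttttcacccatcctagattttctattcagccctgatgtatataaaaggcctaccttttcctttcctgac
Cpa1 (chr6:30638968-30639217, plus strand): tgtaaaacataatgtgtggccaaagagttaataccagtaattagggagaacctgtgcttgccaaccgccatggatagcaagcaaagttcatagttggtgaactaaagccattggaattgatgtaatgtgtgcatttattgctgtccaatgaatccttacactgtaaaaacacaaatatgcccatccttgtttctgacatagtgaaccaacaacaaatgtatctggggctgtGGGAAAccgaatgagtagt

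The Prss1 window holds CACCTG at -183 and, on the other strand, at -96, TTTCCC on the other strand at -135 and -106, and AAGGTCA at -234, counted from the start to the first base in the direction of the gene. Cela3b holds CACCTG at -83 and -46. Reg1 and Cpa1 hold TTTCCC alone, both on the other strand, at -211 and -19. Between these ends CACCTG occurred in Cpb1 (log2 stage difference in controls 5.23), Cela2a (4.97), Prss3 (4.76) and Amy2b (3.77). It also occurred in Prss2 (2.42), Cel (2.21) and Cela1 (2.02). It did not occur in Ctrb1 (3.11) or Pnliprp1 (2.79). Whether the motifs go with the stage difference was not tested. Of the 31 genes 25 had an entry, and CACCTG on either strand occurred in 14 of their windows, 56 percent, against 17.2 percent of the 32851 windows of that length in the RefSeq table. The 14 include Prss1, Prss2, Prss3 and Try4, whose transcripts are near copies, each counted as a separate window. TTTCCC occurred in 8 windows, 32 percent against 21.9 percent, and AAGGTCA in 4, 16 percent against 4.08 percent. Both PTF1 elements occurred in 5 windows, 20 percent against 3.61 percent, at any spacing. The motifs do not overlap one another in the printed windows. A match of letters is not evidence that a factor was bound there.

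Other acinar genes, from lists chosen with earlier results of these data known, are given against the 0.778 percent of all genes that rose and 0.339 percent that fell in controls. Of 7 acinar transcription factors 3 rose in controls and 0 fell. Rbpjl was at 87.6, 86.7 and 83.3 CPM and then at 236, 408 and 337 CPM, 3.81-fold higher (edgeR adjusted p = 0.012). Ptf1a was at 9.18, 16.2 and 15.9 CPM and then at 24.4, 56.5 and 44 CPM, 3.02-fold higher (edgeR adjusted p = 0.043). Bhlha15 rose 3.8-fold, while Nr5a2 had a log2 fold change of 0.43 (SE 0.21, edgeR adjusted p = 0.352), and Gata4, Xbp1 and Mecom did not pass. The rises of these factors were smaller in log2 terms than the median of the enzymes, as values beside each other with no test of the difference.

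In the secretory machinery, 3 of 12 genes rose and 0 fell. They were the protein folding genes Erp27 (8.21-fold) and Fkbp11 (4.01-fold) and the transport gene Tmed6 (3.78-fold). Of 10 further secreted products that were tested, from 20 in the table, 4 rose, namely Serpini2 (4.11-fold), Gm10334 (29.3-fold), Gm5771 (133-fold) and Reg3d (19.4-fold). Gm5771 and Reg3d were at most at 0.646 and 0.215 CPM in the E13.5 libraries. They entered the test through their E14.5 libraries and so had to be higher there. In null-labelled libraries Rbpjl, Erp27 and Serpini2 rose, 1 gene in each list, by 3.36-fold, 12-fold and 7.23-fold.

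The E14.5 libraries differed among themselves in every acinar list. E14.5 control 1 was the lowest of the 5 E14.5 libraries for 24 of the 31 genes and E14.5 null 1 for 5. Both were below the other 3 libraries in 28 of 31 genes. At E13.5 the pools numbered 1 were both below the other 3 in 8 of 31. The share of all genes with either order was not computed, so both counts only describe these genes. The median ratio of E14.5 control 2 to E14.5 control 1 over the 31 genes was 4.77 and that of E14.5 null 2 to E14.5 null 1 was 3.94. Between genotypes at the same number it was 1.64 for E14.5 null 1 over E14.5 control 1 and 0.966 for E14.5 null 2 over E14.5 control 2.

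The same libraries stood apart in other lists. Against the mean of the E13.5 controls, the median log2 difference of the 31 genes was 1.02, 3.17 and 2.63 in the E14.5 controls and 1.65 and 3.01 in the null-labelled libraries. The acinar transcription factors were at 0.44, 1.16 and 1.19, and at 0.46 and 1.21. The 9 epithelial markers were at 0.02, 0.74 and 0.71, and at -0.27 and 0.71. The 8 islet hormone genes were at 1.03, 2.06 and 1.99, and at 1.44 and 2.41. The 7 erythroid markers were at -0.15, 0.98 and 0.93, and at 0.01 and 0.99. By these medians, mesenchyme, endothelium, macrophage, neural and glial, liver and skeletal muscle lists were highest in the E14.5 pool numbered 1 within each genotype. Skeletal muscle was so by little in controls (0.533 against 0.531 in E14.5 control 2). Mesenchyme was at 0.51, 0.14 and -0.32, and at 1.19 and 0.55. As a summed level, liver was instead lowest in E14.5 control 1, at 390 CPM against 393 and 450 CPM in E14.5 controls 2 and 3. Over all 9 the summed epithelial level was 1721 to 2829 CPM in E13.5 controls and 2433 to 3672 CPM in E14.5 controls, with 1 of 9 markers (Krt19) called between the stages in controls. Of 8 islet hormone genes 4 rose in controls (Ins1, Ins2, Sst and Iapp), against 0.778 percent of all genes. The part of epithelial content in the stage and pool differences was not tested.

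**Figure D4:**
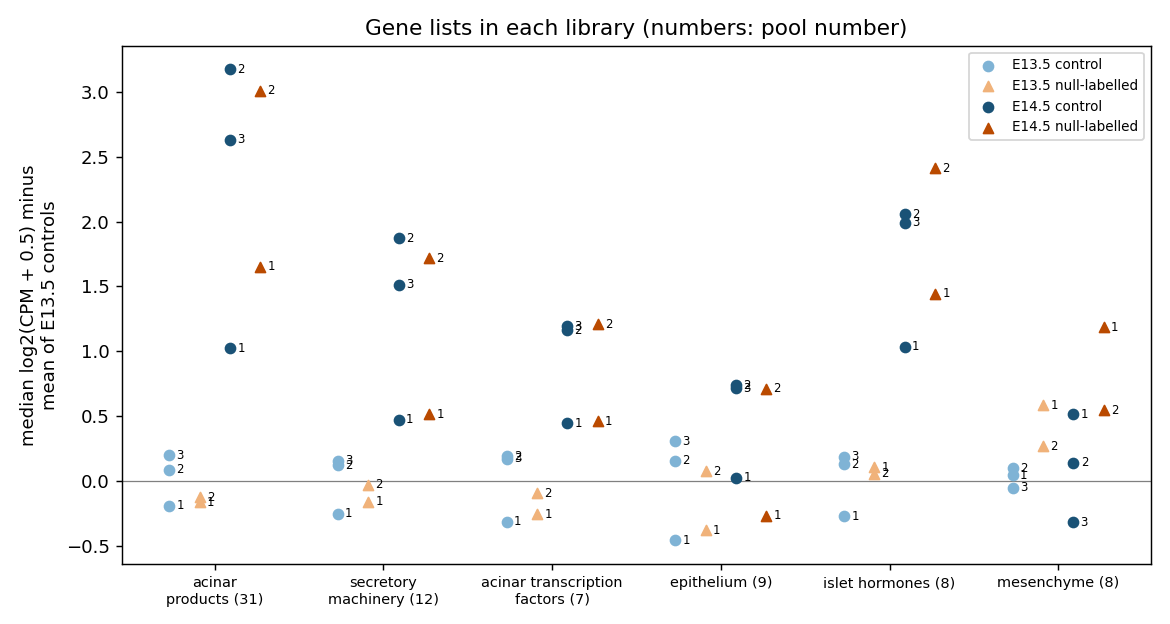
Median over each gene list of log2(CPM + 0.5) minus the mean of the E13.5 controls, for each library, with the pool number beside each point and the number of genes in each list in brackets. In the 3 acinar lists, in epithelium and in islet hormones, the E14.5 pools numbered 1 lie below the other 3 E14.5 pools, and in mesenchyme E14.5 null 1 lies highest.

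Between genotypes no acinar gene passed at either stage in the main edgeR test, and 7 passed at E14.5 with the replicate block. Without the filter on low counts, 4 passed as lower at E13.5, against 0.365 percent of all genes. At E14.5 3 then passed as higher, against 1.33 percent. At E13.5 0 of 31 were called in either direction, against 0.132 percent of all genes higher and 0.175 percent lower (edgeR), and 0 by DESeq2 and limma-voom. With the replicate block, which called 2.07 percent of all genes higher and 0.926 percent lower, 0 of 31 were called as well. The median log2 fold change was -0.37, with 23 genes below 0 and 8 above, against -0.01 over all genes. At an unadjusted p under 0.05 there were 2 of 31 genes, Spink1 and Pnlip, which is near the 6.56 percent of all genes. In 6 genes (Ctrc, Prss3, Klk1, Gp2, Spink1 and Pnlip) the controls were all above both null-labelled libraries and in 1 (Sycn) all below, which held for 10.9 and 12.7 percent of all genes.

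For Pnlip the raw counts at E13.5 were 16, 21 and 19 in controls and 3 and 0 in null-labelled libraries. The pooled rate was 0.08 of the control rate (exact 95 percent interval 0.016 to 0.246, for counting error only), and Pnlip missed the threshold (edgeR adjusted p = 0.262). At E14.5 the counts were 20, 24 and 26 against 10 and 10, a ratio of 0.416 (interval 0.24 to 0.692, edgeR adjusted p = 0.747). Pnlip was the only 1 of the 31 genes whose null-labelled libraries lay below all controls at both stages. Averaged over the stages its adjusted p was 0.0984 by edgeR, 0.0103 by DESeq2 and 0.108 by limma-voom.

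At E14.5 again 0 of 31 genes were called, against 0.0794 percent of all genes higher and 0.0317 percent lower (edgeR), and 0 by DESeq2 and limma-voom. No gene had an unadjusted p under 0.05, against 8.54 percent of all genes, and 16 genes were above 0 and 15 below, with a median of 0.01. Groups overlapped in 30 of 31 genes, where 11.9 percent of all genes had every null-labelled library higher and 11.8 percent lower. Ctrb1, the most abundant, had a log2 difference of -0.03 (SE 0.57), Pnliprp1 of -0.11 (SE 0.54) and Cpa1 of -0.28 (SE 0.37). The SE of the 31 genes ran from 0.33 to 1.44, so small differences were not detectable with these pools. The sign of the median differed with the pool left out, at -1.19 without E14.5 null 2 and 0.64 without E14.5 null 1.

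Taking the replicate number as a block within each stage changed these calls. No null-labelled pool was numbered 3, so E14.5 control 3 did not enter the blocked difference, which rests on the pools numbered 1 and 2. With it 7 genes were higher in E14.5 null-labelled libraries and 0 lower, against 1.81 percent of all genes higher and 0.646 percent lower. They were Cpb1 at 1.35 on the log2 scale (edgeR adjusted p = 0.00311), Prss1 at 1.28 (0.00502), Try10 at 1.27 (0.0282), Prss3 at 1.09 (0.00211), Try5 at 0.94 (0.0014), Reg1 at 0.75 (0.038) and Cela2a at 0.6 (0.0282). Cpb1 was at 10.3 and 47.3 CPM in E14.5 control 1 and E14.5 null 1, and at 196 and 323 CPM in E14.5 control 2 and E14.5 null 2. In each of the 7 genes the null-labelled pool was the higher one at both numbers. This is no further support, since the block compares pools within a number and the genes were picked by it. The same held for Ctrl, Cel, Clps, Spink1 and Zg16, which did not pass, and for no other acinar gene listed. Prss2 had a blocked difference of -0.46 and did not pass (edgeR adjusted p = 0.0766). The summed trypsin row was 0.82 higher with the block (SE 0.13, edgeR adjusted p = 0.00251) and 0.4 without it (SE 0.71, edgeR adjusted p = 0.93).

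Averaged over both stages, 0 of 31 genes were called without the block, against 1.46 percent of all genes higher and 0.418 percent lower (edgeR), and 1 gene, Pnlip, had an unadjusted p under 0.05, against 12 percent of all genes. DESeq2 called 1 lower, Pnlip, against 0.828 percent of all genes lower, and limma-voom 0. With the block 2 genes were higher, Try5 by 0.77 (edgeR adjusted p = 0.000783) and Cpb1 by 0.89 (0.0182), and 0 lower, against 4.11 percent of all genes higher and 1.72 percent lower.

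**Figure D5:**
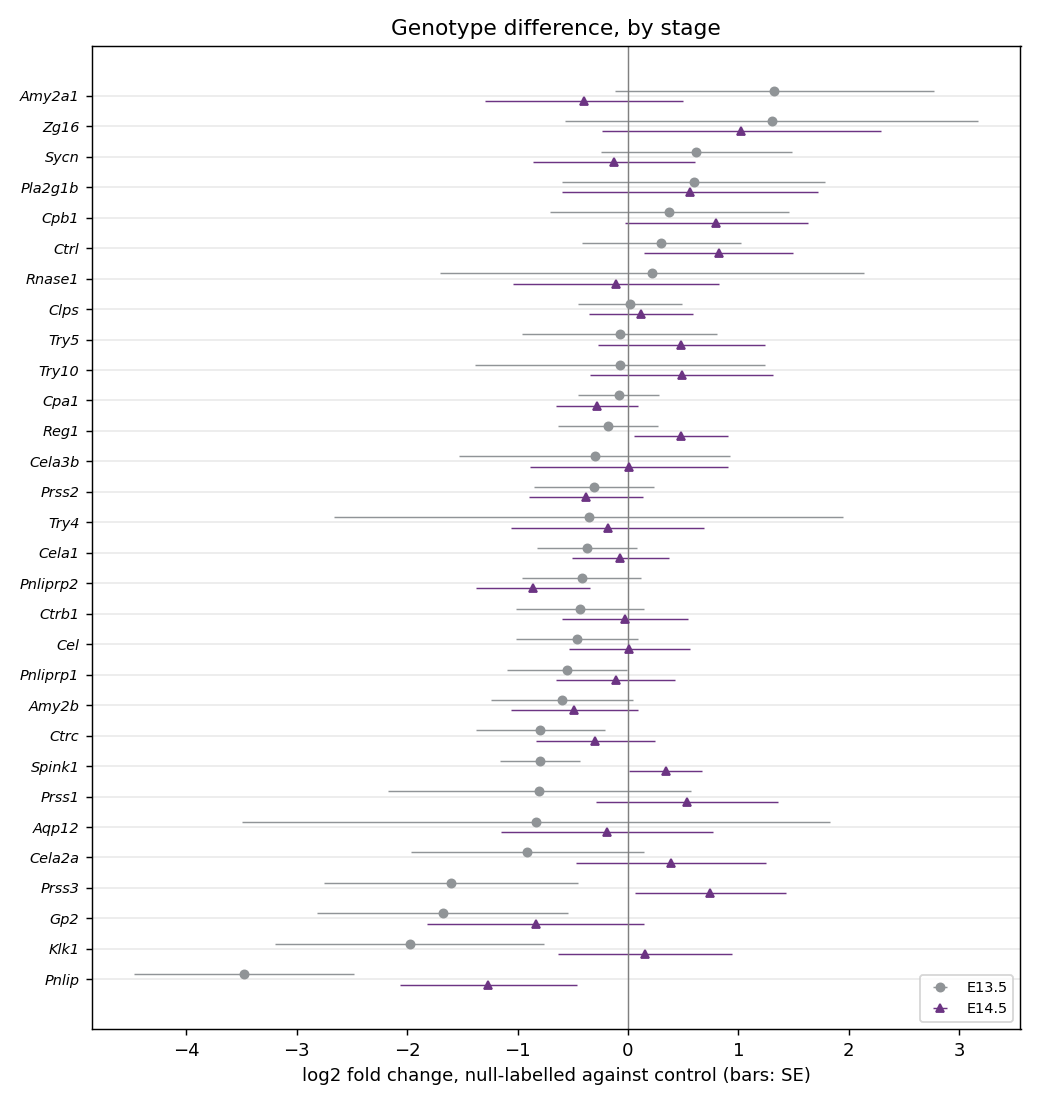
Log2 fold change of null-labelled against control libraries for 30 of the 31 genes at E13.5 (circles) and E14.5 (triangles), with SE bars, from the test without the replicate block. Cuzd1 is left out because both E13.5 null-labelled libraries had 0 counts. Most E13.5 points lie below 0, the E14.5 points lie on both sides, and Pnlip is the lowest at both stages.

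Summed levels of several marker lists for other cells did not overlap between the genotype labels, while without the replicate block single markers of these lists passed only in mesenchyme. The 8 mesenchyme markers summed to 6119 to 6848 CPM in E13.5 controls and 8215 and 9798 CPM in null-labelled libraries, and to 5709 to 9106 and 9670 and 14649 CPM at E14.5, with 2 of 8, Lum and Dcn, called higher at each stage (edgeR). The collagens Col1a1, Col1a2 and Col3a1 made up most of these sums, and Pdgfra, another of the 8, was at 211, 186 and 141 CPM in E13.5 controls and 191 and 144 CPM in null-labelled libraries. The 8 liver markers summed to 330 to 452 against 535 and 592 CPM at E13.5 and 390 to 450 against 584 and 616 CPM at E14.5. Ttr made up most of the control sums. At E13.5 it was at 251, 287 and 299 CPM in controls and 266 and 286 CPM in null-labelled libraries. Fgb and Serpina1a overlapped there as well. Alb was at 8.57, 23 and 6.21 against 95.6 and 53.7 CPM, and Afp at 52.5, 117 and 58.7 against 190 and 163 CPM. The 6 neural and glial markers summed to 91.8 to 112 against 163 and 271 CPM at E13.5 and, overlapping, to 67.2 to 160 against 131 and 267 CPM at E14.5. The 6 endothelial markers summed to 378 to 438 against 527 and 593 CPM and to 405 to 425 against 444 and 504 CPM. The 6 macrophage markers summed to 139 to 162 against 161 and 193 CPM, overlapping, and to 122 to 170 against 207 and 259 CPM. The 6 skeletal muscle markers reached 198 CPM in E14.5 null 1, against 16 to 27.5 CPM in E14.5 controls and 20.7 CPM in E14.5 null 2. Their part in the acinar values was not tested.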

How the data were processed

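Read counts per gene were deposited by the authors as raw, whole-number counts for 10 libraries. Per the submitters' processing notes, TopHat, HTSeq and DESeq2 were used on mm10. Not given in the sources used here are their versions, the strand setting and the handling of multi-mapped reads. The 31 genes, the other lists and the replicate tests were chosen with earlier results of these data known. All 31 genes are accounted for, with values in single libraries for members of the main roles.

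Differences in counts were tested by the quasi-likelihood F test of edgeR 4.0.16 (R 4.3.3, TMM normalization, a mean for each of 4 groups, 6 residual degrees of freedom). A filter on low counts by group left 18898 genes with 99.9 percent of the counts. Adjusted p-values (Benjamini-Hochberg) cover all of these, and 0.05 was the threshold. The SE is the log2 fold change divided by the square root of F. RPKM used exon lengths of GENCODE M21 on GRCm38, matched by identifier for 54495 of 54532 genes. Replicates of a group differed beyond counting noise (chi-square per gene 12.1 to 48.4). The test was checked on simulated data.

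Replicate numbers in the titles were taken as pairing control and null-labelled libraries. After the group mean was subtracted, same-numbered libraries had a correlation over genes of 0.52 (number 1) and 0.26 (number 2) at E13.5 and of 0.63 and 0.35 at E14.5, above the limit of 0.1 in all 4 pairs. This is thin, since 2 libraries deviate as mirror images and those numbered 2 of the null-labelled groups correlated more with control 3, at 0.36 and 0.51. The block left 2 residual degrees of freedom. For controls of both stages the correlations were 0.44, 0.098 and 0.24, so stages were not treated as paired.

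Alternatives were other normalizations and filters, only the groups compared, DESeq2 1.42.0, limma-voom (limma 3.58.1), summed copies, each library left out, and all pools numbered 1 left out. Promoter bases are from RefSeq. Transcripts, not proteins, were compared between copies.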

Additional observations from a re-analysis of the deposited data

How the results depend on the processing

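No value that passed the test, with or without an alternative, changed sign between them. Values that passed in neither did so in 243 of the single-gene results. The summed trypsin difference at E13.5 between genotypes was 0.06 with the replicate block against -0.33 without it, and the summed amylase difference between stage differences was -0.11 with all annotated copies summed against 0.08. With edgeR's RLE factors, library totals alone or TMM factors computed without acinar genes, counts of called genes stayed within 1.5 times the reported ones in each comparison. Dropping the low-count filter made the prior degrees of freedom infinite, against 6.31. The null-labelled stage count was then 26 and the genotype counts were 4 lower at E13.5, 3 higher at E14.5, 1 higher and 3 lower averaged, and 4 for the difference between stage differences. Without all pools numbered 1, which leaves 1 null-labelled library a stage and 2 residual degrees of freedom and assumes that the lone pools vary like the controls, these counts were 26, then 5 lower, 3 higher, 1 higher and 4 lower, and 1. The null-labelled stage median was then 4.79. With summed copies 1 gene was called in the null-labelled stage comparison. By limma-voom 1 was called in each stage comparison. DESeq2 called 20 in the null-labelled stage comparison and 1 lower in the averaged genotype.

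With the replicate block counts were 22 (null-labelled stage), 7 higher (E14.5 genotype), 2 higher (averaged) and 1 higher (difference between stage differences), with log2 values of 0.82 and 0.44 for summed trypsin (E14.5 and averaged genotype), and of 4.49 and 3.81 for summed trypsin and amylase (null-labelled stage). The block also gave 25 called genes in the control stage comparison, where the numbers were not taken as pairing, against 20 without it. Over all genes it called 841 higher between control stages and 583 between null-labelled stages. It changed no other call of the 31 genes between genotypes.

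With each library left out in turn, called genes ranged from 0 to 25 in the control stage comparison and from 0 to 22 in the null-labelled one. The median log2 fold change ranged from 2.45 to 4.33 for null-labelled stage, from -1.19 to 0.64 for E14.5 genotype (below 0 also without E14.5 control 1, at -0.42), from -0.87 to 0.08 for averaged genotype and from -0.95 to 1.10 for the difference between stage differences. Only the groups compared could not be used for the averaged and difference tests, which need all 4 groups.

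Calls rest on 2 or 3 pools a group, on pools of unequal size, and on a spread shared by all groups. At this depth 9 genes (Try4, Amy2a1, Pla2g1b, Rnase1, Gp2, Cuzd1, Aqp12, Klk1 and Zg16) were under 1 CPM in every E13.5 library, and SE of the E13.5 genotype comparison reached 2.80. Cuzd1 was not tested without E14.5 control 2. Of the results for single genes and single libraries under all alternatives, 3138 kept their direction and side of the threshold, 203 came to pass it and 152 no longer passed.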
